A study of Mus musculus with 37 samples.

Results

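Brain RNA of adult male mice given antibiotics by mouth was compared with that of adult male mice that stayed on water, in animals that received only saline injections. The comparison takes the 5 libraries of adults on antibiotics with saline (replicates 1 to 5) and the 3 libraries of adults on water with saline (replicates 1, 3 and 5), as the sample labels assign them. These are 8 of the 37 libraries of the study. All mice were wild-type C57BL/6J. Adults started treatment on postnatal day 55 and adolescents on postnatal day 25. Injections under the skin over 5 days held saline or, in other groups, 15 mg/kg of morphine, so the control adults drank water and were injected with saline too. The sources used here do not say which antibiotics were used. The labels give brain as the tissue and all cells as the cell type, while the title of the series speaks of the medial prefrontal cortex. The labels do not say that each library came from a separate animal, so the p-values measure the spread between libraries. That spread was estimated over all 37 libraries, and a fit of only the compared groups called 0 genes. The comparison asks what antibiotics alone did to gene expression in this tissue at the adult age, without an opioid.

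Oral antibiotics deplete gut bacteria, and the brain can be reached from the gut through hormones, immune signals, microbial metabolites and nerves. Glucocorticoids, released from the adrenal gland, act on brain cells through nuclear receptors that switch on a common set of target genes in astrocytes, endothelial cells and neurons. Cirbp and Rbm3 are RNA-binding proteins whose messages rise when cells are mildly cooled, and chaperones of the cytosol and of the endoplasmic reticulum fold proteins and rise when unfolded protein builds up.

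The 8 libraries held 12905623 to 17013300 counts, and 4.47 to 5.47% of the counts were mitochondrially encoded. Antibiotic replicate 2 stood apart, with 0.582% of its counts on identifiers that have no symbol, against 3.54 to 4.81% in the other 7 libraries. Values without this library are given beside the called genes. The cortical excitatory marker Slc17a7, which loads glutamate into the synaptic vesicles of these neurons, was at 1527 to 1659 CPM (counts scaled to the library's normalised total). Drd2, a dopamine receptor abundant in striatum, was at 0.693 to 1.74 CPM. Mbp, a myelin protein, was at 841 to 1265 CPM with water and at 826, 897, 1080, 1400 and 2776 CPM with antibiotics, and the highest value came from antibiotic replicate 5. Ttr, which marks choroid plexus, was at 34.3 CPM in antibiotic replicate 4, against 0 to 0.201 CPM elsewhere among the 8 libraries.

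Of 19348 genes tested, 7 passed an adjusted p of 0.05 in edgeR's quasi-likelihood test (0.0362%), 6 of them higher with antibiotics (0.031%) and 1 lower (0.00517%). The genes that rose were Zfas1, Cirbp, Etnppl, Rbm3, Plin4 and Rbm3os, and the gene that fell was Slco1c1. Cirbp, Rbm3 and Rbm3os encode or overlap RNA-binding proteins induced by cold, and Zfas1 is a host transcript of small nucleolar RNAs. Etnppl encodes an enzyme of phosphoethanolamine breakdown, Plin4 a lipid droplet coat protein and Slco1c1 a transporter of thyroid hormone. At an unadjusted p under 0.05 there were 1463 genes (7.56%), 739 higher (3.82%) and 724 lower (3.74%). The median log2 fold change of all genes was 0.00. For 752 genes (3.89%) the antibiotic libraries lay above the water libraries without overlap, and for 677 (3.5%) below them.

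**Figure D1:**
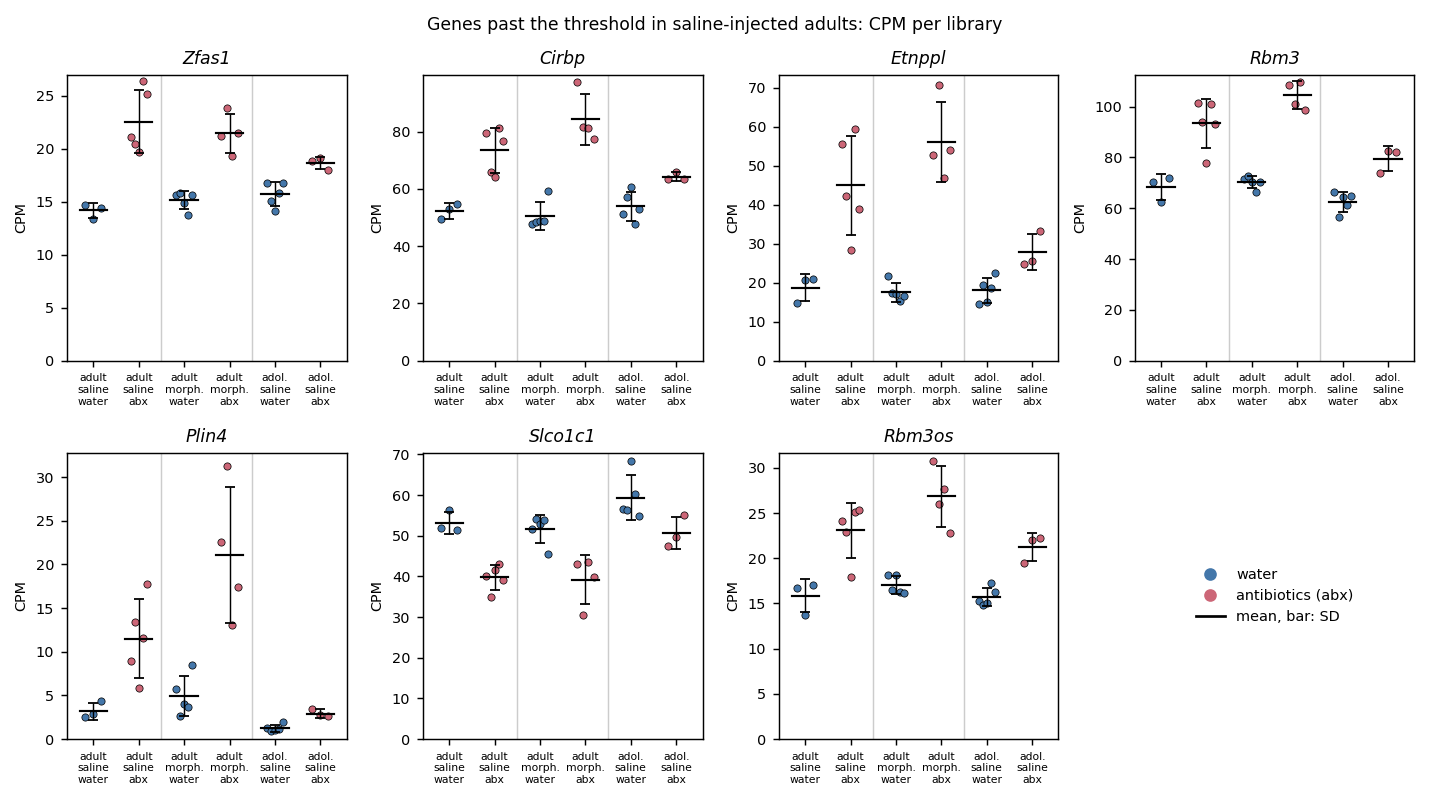
Each panel plots 1 gene that passed the threshold, with CPM on the y axis and 1 point per library for adult saline, adult morphine and adolescent saline groups (libraries over 1000000 counts). Lines are means and bars SDs. In saline-injected adults (left pair in each panel) the 5 antibiotic libraries lie on 1 side of the 3 water libraries for all 7 genes. Of all genes tested, 3.89% were higher and 3.5% lower in this way. The 7 genes were picked from these same libraries, so their separation is not independent evidence.

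The cold-inducible proteins Cirbp and Rbm3 bind messenger RNAs and affect their stability, polyadenylation and translation. Cirbp (ENSMUSG00000045193) was at 49.5, 52.9 and 54.8 CPM in the water libraries and at 79.5, 65.9, 64.3, 81.3 and 76.6 CPM in the antibiotic libraries. Rbm3 (ENSMUSG00000031167) was at 70.4, 62.4 and 71.9 CPM with water and at 101.6, 93.8, 77.7, 100.9 and 93.2 CPM with antibiotics. For both genes every antibiotic library was above every water library, and antibiotic replicate 3 was the lowest of its group. The log2 fold change was 0.49 for Cirbp (95% interval 0.32 to 0.66, adjusted p = 0.00663, edgeR) and 0.45 for Rbm3 (0.28 to 0.63, adjusted p = 0.0208). Rbm3os (ENSMUSG00000055188), a transcript on the opposite strand at the Rbm3 locus, was at 16.7, 13.8 and 17.1 CPM with water and at 24.1, 23.0, 17.9, 25.2 and 25.3 CPM with antibiotics. Its groups did not overlap either, with a log2 fold change of 0.54 (0.32 to 0.76, adjusted p = 0.0476). The sources used here do not say whether the counting used strand, so reads of Rbm3 and Rbm3os cannot be told apart. Without antibiotic replicate 2 the log2 fold changes were 0.52 (adjusted p = 0.00396), 0.45 (0.0623) and 0.54 (0.1) for Cirbp, Rbm3 and Rbm3os.

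The remaining members of the list of cold-inducible RNA-binding proteins and their splicing partners did not pass. Of its 10 tested genes, 2 rose (0.031% of all genes did) and 0 fell. At an unadjusted p under 0.05, 3 were higher (30%, against 3.82% of all genes) and 0 lower (against 3.74%). The median log2 fold change was 0.08, against 0.00 over all genes. The list was chosen with earlier results of these data known. Srsf5, a splicing factor, was at 175, 165 and 152 CPM with water and 174 to 198 CPM with antibiotics (log2 fold change 0.18, unadjusted p = 0.0426), and the groups overlapped.

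The Cirbp promoter is shown because a mild cold response element was described for this gene. It covers the 250 bases before a RefSeq start of Cirbp, chr10:80167589-80167838 of GRCm38.p6, plus strand. The capitals mark TCCCCGCC, the element searched on both strands, which lies 247 bases before the start.

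Cirbp: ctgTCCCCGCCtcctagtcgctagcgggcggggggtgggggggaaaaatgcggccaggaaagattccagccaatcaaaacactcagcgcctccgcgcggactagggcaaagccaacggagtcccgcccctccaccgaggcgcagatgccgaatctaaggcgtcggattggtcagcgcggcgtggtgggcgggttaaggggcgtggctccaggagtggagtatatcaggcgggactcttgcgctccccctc

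The letters TCCCCGCC occur in 4.64% of 32851 RefSeq promoter windows of this length, and in 1 of the 7 members of the cold-inducible list that have a window. The table holds windows for 6 of the 7 called genes, and not for Rbm3.

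Zfas1 (ENSMUSG00000074578) is a noncoding transcript whose introns carry small nucleolar RNAs, the guides of ribosomal RNA modification. It was at 14.7, 13.4 and 14.4 CPM in the water libraries and at 21.1, 20.5, 19.7, 26.3 and 25.2 CPM in the antibiotic libraries. Every antibiotic library was above every water library, and replicates 4 and 5 were the highest. The log2 fold change was 0.67 (0.49 to 0.85), with the smallest adjusted p of the comparison (7.49e-05, edgeR), and it was 0.70 without antibiotic replicate 2. Of 17 small nucleolar RNA host genes tested, 1 rose (Zfas1) and 0 fell, and 3 were higher (17.6%, against 3.82% of all genes) and 0 lower (against 3.74%) at an unadjusted p under 0.05. Their median log2 fold change was 0.10. Gas5, a host gene that also acts as a decoy of the glucocorticoid receptor, was at 53.8, 44.8 and 49.6 CPM with water and at 57.1, 54.2, 63.7, 67.3 and 68.3 CPM with antibiotics (log2 fold change 0.33, adjusted p = 0.234). Snhg12 was at 8.68 to 11.03 CPM with water and at 11.8 to 13.8 CPM with antibiotics (0.34, adjusted p = 0.472). In both genes the antibiotic libraries lay above the water libraries without overlap.

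Etnppl and Plin4 had the largest changes among the called genes. Etnppl (ENSMUSG00000019232), an astrocyte enzyme that breaks down phosphoethanolamine, was at 14.7, 20.6 and 20.9 CPM with water and at 55.6, 42.3, 28.4, 59.4 and 38.9 CPM with antibiotics. The antibiotic mean was 2.4 times the water mean, and the antibiotic libraries varied by more than the water libraries, with an SD of 12.7 against 3.51 CPM. Plin4 (ENSMUSG00000002831), a coat protein of lipid droplets, was at 2.49, 2.81 and 4.31 CPM with water and at 8.89, 13.4, 5.82, 11.5 and 17.8 CPM with antibiotics. Its antibiotic mean was 3.59 times the water mean, and antibiotic replicate 3 was the lowest for Plin4 as for Etnppl. The log2 fold change was 1.25 for Etnppl (0.83 to 1.67, adjusted p = 0.00663, edgeR) and 1.83 for Plin4 (1.13 to 2.54, adjusted p = 0.0349). Without antibiotic replicate 2 they were 1.27 (adjusted p = 0.0143) and 1.77 (adjusted p = 0.1).

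Among 17 tested genes of phosphatidylethanolamine and phosphatidylcholine metabolism, Etnppl was the member that passed, and the median log2 fold change was -0.02. At an unadjusted p under 0.05, 1 was higher (5.88%, against 3.82% of all genes) and 1 lower (5.88%, against 3.74%). Selenoi, which makes phosphatidylethanolamine, was at 66.8 to 69.5 CPM with water and at 59.6 to 65.0 CPM with antibiotics (log2 fold change -0.14, unadjusted p = 0.0199). Among 20 tested genes of lipid droplets and fatty acid release, 1 rose (Plin4) and 0 fell, with a median of 0.04, and 3 were higher (15%, against 3.82% of all genes) and 1 lower (5%, against 3.74%) at an unadjusted p under 0.05. Pnpla2, the lipase that starts the breakdown of stored triglyceride, was at 13.9, 14.1 and 15.6 CPM with water and at 21.3, 17.3, 16.0, 23.6 and 19.2 CPM with antibiotics (0.42, adjusted p = 0.188). Dgat2, which makes triglyceride, was at 47.1 to 52.6 CPM and 54.9 to 70.7 CPM (0.33, adjusted p = 0.263). The groups overlapped for neither gene, and neither passed the threshold.

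Slco1c1 (ENSMUSG00000030235), which carries thyroxine across the endothelium of the blood-brain barrier and into astrocytes, was at 52.0, 56.2 and 51.3 CPM with water and at 40.2, 34.9, 41.7, 43.0 and 39.2 CPM with antibiotics. All 5 antibiotic libraries were below the 3 water libraries, and Slco1c1 fell by 0.42 on the log2 scale (interval -0.59 to -0.25, adjusted p = 0.0453, edgeR). Without antibiotic replicate 2 the value was -0.38 (adjusted p = 0.1). Dio2, which converts thyroxine to the active hormone in astrocytes, was at 88.7, 88.2 and 72.4 CPM with water and at 57.2, 59.1, 61.6, 61.1 and 52.5 CPM with antibiotics. Its log2 fold change was -0.51 (SE 0.14), and it did not pass (adjusted p = 0.243), although the groups did not overlap. Rxra, the partner of the thyroid hormone receptor, was at 26.8 to 29.5 and 30.9 to 35.5 CPM (0.23, adjusted p = 0.359). Thra, a thyroid hormone receptor, was at 603 to 670 and 657 to 819 CPM (0.19, adjusted p = 0.625). Of 18 tested genes of thyroid hormone transport, activation and response, 0 rose and 1 fell (0.00517% of all genes did), with a median log2 fold change of 0.02. At an unadjusted p under 0.05, 3 were higher (16.7%, against 3.82% of all genes) and 2 lower (11.1%, against 3.74%). Of 20 endothelial and blood-brain barrier genes, Slco1c1 alone passed, and the median was -0.02. At the unadjusted threshold 1 was higher (5%) and 3 lower (15%). Fewer cells of a type and less RNA per cell cannot be told apart in RNA from whole tissue.

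Glucocorticoid-induced genes lay mostly above 0. Of 25 tested members, 23 had a positive and 2 a negative log2 fold change, against 9853 and 9493 of all genes, and the median was 0.25. Plin4 was the member that rose, and 0 fell. At an unadjusted p under 0.05, 11 were higher and 0 lower, against 3.82% and 3.74% of all genes. The 5 antibiotic libraries were above the 3 water libraries without overlap for 10 of the 25 members (3.89% of all genes tested were higher in that way) and below them for 0 members (3.5%). Per library, the median deviation of the members from the water mean (log2 CPM) was 0.358, 0.12, 0.0327, 0.385 and 0.346 in antibiotic replicates 1 to 5. In the water libraries it was -0.0362, 0.00447 and 0.0458, so antibiotic replicate 3 lay within their range. The list was known from earlier results of these data to be higher as a whole, so its direction is not independent evidence.

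Hif3a (ENSMUSG00000004328), a member of the hypoxia-inducible factor family that glucocorticoids induce, was at 4.98, 4.81 and 6.70 CPM with water and at 8.82, 15.0, 8.74, 15.3 and 14.1 CPM with antibiotics. Fkbp5 (ENSMUSG00000024222), a co-chaperone that lowers the hormone affinity of the glucocorticoid receptor, was at 19.98, 22.6 and 24.3 CPM with water and at 38.7, 39.0, 27.9, 54.3 and 36.8 CPM with antibiotics. Sgk1 (ENSMUSG00000019970), a kinase that controls ion channels, was at 42.8, 34.9 and 44.9 CPM with water and at 59.1, 53.0, 51.0, 73.2 and 80.3 CPM with antibiotics. The groups did not overlap for any of these genes, and antibiotic replicate 3 was the lowest of its group for each. The log2 fold changes were 1.16 (SE 0.24, adjusted p = 0.0628), 0.81 (SE 0.17, adjusted p = 0.091) and 0.63 (SE 0.23, adjusted p = 0.478) in edgeR, so none passed. In a fit of 34 libraries, without the 2 libraries that held under 1000000 counts and adolescent water saline replicate 1, Hif3a (adjusted p = 0.0275, range over 17 settings 0.0133 to 1) and Fkbp5 (0.044, range 0.00963 to 0.815) passed. In the edgeR fit of 35 libraries, which kept adolescent water saline replicate 1, the adjusted p was 0.07 and 0.0744, and neither gene passed. Over the 17 settings Hif3a passed in 4 and Fkbp5 in 3. Map3k6 (0.68), Sult1a1 (0.79) and Gpd1 (0.16) were named after their values were seen, and their groups did not overlap either. Klf9, a transcription factor induced by glucocorticoids and thyroid hormone, was at 247 to 265 CPM with water and 260 to 295 CPM with antibiotics (0.13, unadjusted p = 0.0525).

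**Figure D2:**
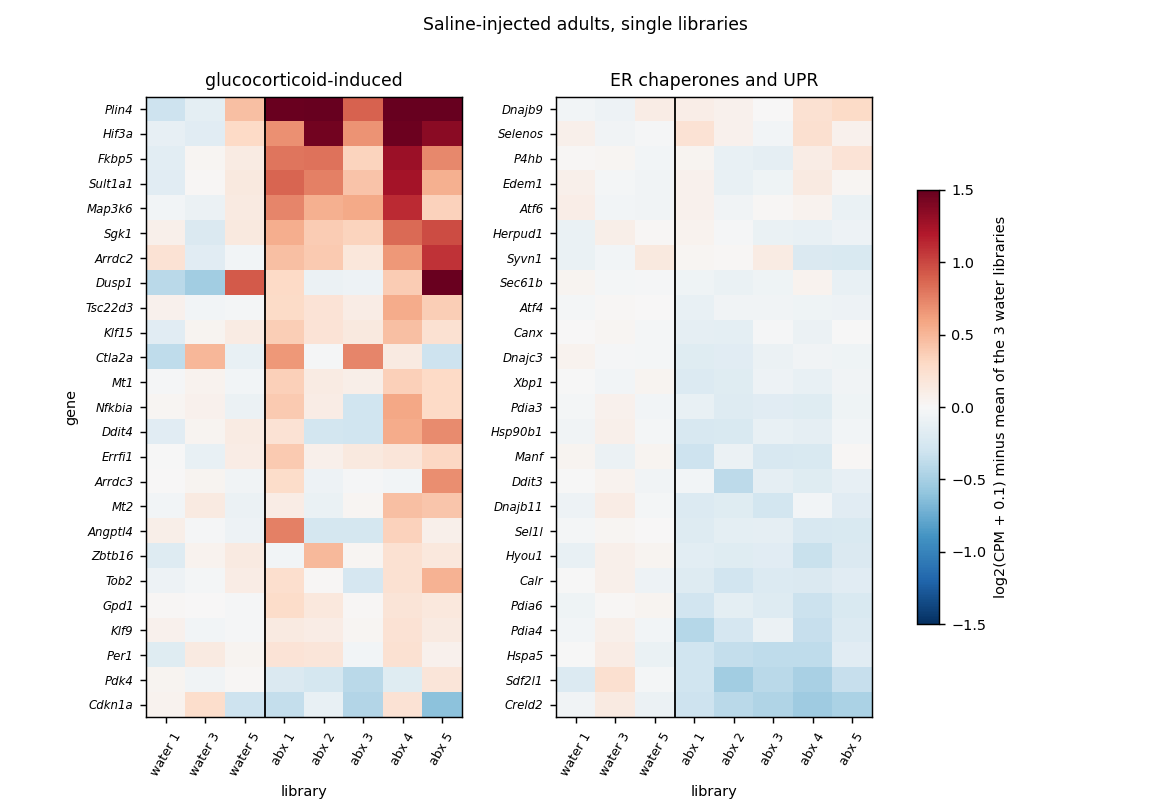
Colours show log2(CPM + 0.1) minus the mean of the 3 water libraries for the 25 glucocorticoid-induced genes and the 25 endoplasmic reticulum genes (ER chaperones and the unfolded protein response, UPR), 1 column per library. Genes are ordered by log2 fold change. Antibiotic replicate 3 is paler than replicates 1, 2 and 4 for the first glucocorticoid-induced genes, and the endoplasmic reticulum genes at the bottom are blue in most antibiotic libraries.

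Sgk1 was the member of this list with a full palindromic glucocorticoid response element in its promoter window. The site lies at chr10:21993693-21993723 of GRCm38.p6, on the plus strand, 189 bases before the RefSeq start, and the capitals mark AGAACA and TGTTCT separated by 3 bases.

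Sgk1: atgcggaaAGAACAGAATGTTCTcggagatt

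These letters, searched on both strands, occur in 3 of 32851 promoter windows (0.00913%), and in 1 of the 22 members that have a window. Other forms of the element and sites outside the window were not searched.

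Of 9 tested corticosteroid receptors and genes of hormone handling, 8 had a negative and 1 a positive log2 fold change, against 9493 and 9853 of all genes, and the median was -0.16. None passed in edgeR, and 4 were lower (44.4%, against 3.74% of all genes) and 0 higher at an unadjusted p under 0.05. Nr3c1 (ENSMUSG00000024431), the glucocorticoid receptor, was at 124, 117 and 112 CPM with water and at 109, 94.0, 110, 99.4 and 109 CPM with antibiotics (log2 fold change -0.17, SE 0.06, adjusted p = 0.462). Crhr1, the receptor of corticotropin-releasing hormone, was at 25.9, 31.0 and 32.4 CPM with water and at 21.3, 26.0, 27.3, 24.2 and 19.2 CPM with antibiotics (-0.34, adjusted p = 0.52). Fkbp4, a co-chaperone of the same receptor complex, was at 96.9 to 105 and at 88.2 to 96.7 CPM (-0.14, adjusted p = 0.55). The libraries overlapped for Crhr1 and not for Nr3c1 or Fkbp4.

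Chaperones of the endoplasmic reticulum and genes of the unfolded protein response lay mostly below 0. Of 25 tested, 21 had a negative and 4 a positive log2 fold change, against 9493 and 9853 of all genes, with a median of -0.14. None passed over all genes in edgeR. At an unadjusted p under 0.05, 12 were lower (48%, against 3.74% of all genes) and 0 higher. The antibiotic libraries lay below the water libraries without overlap for 12 (3.5% of all genes tested). This list, like the heat shock and cholesterol lists below, was chosen with earlier results of these data known, so such shares are not independent evidence. Hspa5 (ENSMUSG00000026864), the main Hsp70 chaperone of the endoplasmic reticulum, was at 184, 200 and 173 CPM with water and at 150, 144, 143, 142 and 164 CPM with antibiotics. Hyou1 (ENSMUSG00000032115), its nucleotide exchange factor, was at 85.9, 98.4 and 95.4 CPM with water and at 83.4, 82.0, 82.6, 73.8 and 79.9 CPM with antibiotics. Creld2 (ENSMUSG00000023272), a secreted protein induced by endoplasmic reticulum stress, was at 11.01, 12.6 and 10.8 CPM with water and at 9.21, 8.58, 8.32, 7.84 and 8.21 CPM with antibiotics. All antibiotic libraries were below all water libraries for these genes. Their log2 fold changes were -0.32 (interval -0.49 to -0.15), -0.21 (-0.32 to -0.11) and -0.44 (-0.67 to -0.21), with adjusted p = 0.209, 0.188 and 0.209 in edgeR. In the fit of 34 libraries the adjusted p was 0.00806, 0.0319 and 0.0275. In the edgeR fit of 35 libraries, which kept adolescent water saline replicate 1, it was 0.125, 0.0806 and 0.125. Over all 17 settings it ranged from 0.0062, 0.0188 and 0.00798 up to 1. Hspa5, Hyou1 and Creld2 each passed in 2 of the 17 settings, and in 0 of the 8 that left out 1 of the compared libraries. Canx, a lectin chaperone, was at 297 to 309 and 274 to 303 CPM (-0.08, unadjusted p = 0.148).

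The endoplasmic reticulum stress element, CCAAT and CCACG separated by 9 bases, is bound by the factors of the unfolded protein response. It was found on either strand in 0.113% of all 32851 promoter windows, and in 8 of the 22 list members that have a window. The Hspa5 window, chr2:34771840-34772089 of GRCm38.p6 on the plus strand, is shown whole, and the other 7 members by their sites, with the element (or its reverse complement) and its spacer in capitals. All run 5′ to 3′ on the strand of the gene and come from RefSeq.

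Hspa5: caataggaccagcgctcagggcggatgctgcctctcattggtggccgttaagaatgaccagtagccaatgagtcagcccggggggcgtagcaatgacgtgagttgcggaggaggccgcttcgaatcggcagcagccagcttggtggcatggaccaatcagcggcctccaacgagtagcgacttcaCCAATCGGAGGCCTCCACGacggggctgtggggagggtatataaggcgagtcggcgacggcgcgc
Creld2, chr15:88819512-88819546, plus strand: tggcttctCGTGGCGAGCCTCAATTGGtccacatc
Pdia6, chr12:17266483-17266517, plus strand: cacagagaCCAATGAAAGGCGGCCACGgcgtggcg
Calr, chr8:84847067-84847101, minus strand: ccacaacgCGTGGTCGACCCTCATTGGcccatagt
Hsp90b1, chr10:86705630-86705664, minus strand: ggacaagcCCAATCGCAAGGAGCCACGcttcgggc
Dnajc3, chr14:118937819-118937853, plus strand: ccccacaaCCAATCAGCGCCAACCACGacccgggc
Canx, chr11:50325792-50325826, minus strand: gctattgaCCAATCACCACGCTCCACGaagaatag
Syvn1, chr19:6046524-6046558, plus strand: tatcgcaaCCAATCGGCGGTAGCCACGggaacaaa

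These members are named for the match and not for their values. The matches are 65 bases before the start in Hspa5, 126 in Creld2, 98 in Pdia6, 162 in Calr, 212 in Hsp90b1, 105 in Dnajc3, 145 in Canx and 44 in Syvn1, and Hsp90b1 has another match 107 bases before its start. Pdia6, a protein disulfide isomerase, was at 74.3, 78.5 and 79.7 CPM with water and at 63.5, 70.2, 67.9, 61.9 and 66.1 CPM with antibiotics (log2 fold change -0.23). Calr, the calcium-binding lectin chaperone calreticulin, was at 269, 285 and 256 CPM with water and at 235, 222, 235, 232 and 239 CPM with antibiotics (-0.22). Hsp90b1, the Hsp90 of this compartment, was at -0.15 on the log2 scale, Dnajc3, a co-chaperone, -0.11, and Syvn1, a ubiquitin ligase of protein disposal, -0.05. Of the 8 members with a match, 5 were lower at an unadjusted p under 0.05, and the median log2 fold change was -0.18. Of the 14 members with a window and no match, 5 were lower and the median was -0.10. Of all genes tested, 3.74% were lower. Atf6, Hyou1 and Manf have no window and are in neither set. A link between the match and the change was not tested.

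Of 28 tested cytosolic heat shock proteins and chaperonins, 21 had a negative and 7 a positive log2 fold change, the median was -0.06 and none passed. At an unadjusted p under 0.05, 8 were lower (28.6%, against 3.74% of all genes) and 1 higher (3.57%, against 3.82%). Dnajb5 (ENSMUSG00000036052), a co-chaperone of Hsp70, was at 129, 160 and 128 CPM with water and at 101, 114, 118, 109 and 96.7 CPM with antibiotics (log2 fold change -0.37, SE 0.09, adjusted p = 0.118). Hsph1, a nucleotide exchange factor of Hsp70, was at 260, 268 and 247 CPM with water and at 214, 214, 242, 200 and 213 CPM with antibiotics (-0.25, adjusted p = 0.23). Hspa4, of the same family, was at 225 to 228 and 191 to 210 CPM (-0.18, adjusted p = 0.352). The groups did not overlap for these genes. Hsp90ab1, the constitutive Hsp90, had a log2 fold change of -0.01.

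Genes of cholesterol synthesis and uptake lay mostly below 0. Of 19 tested, 15 had a negative and 4 a positive log2 fold change, against 9493 and 9853 of all genes, the median was -0.17 and none passed. There were 9 lower (47.4%, against 3.74% of all genes) and 0 higher members at an unadjusted p under 0.05. The antibiotic libraries lay below the water libraries without overlap for 2 members (3.5% of all genes tested). The summed level was 1394 to 1436 CPM with water and 1165 to 1422 CPM with antibiotics, the highest in antibiotic replicate 5. Dhcr7 (ENSMUSG00000058454), which makes cholesterol from its last precursor, was at 29.6, 31.8 and 31.4 CPM with water and at 21.3, 21.7, 25.3, 24.6 and 27.5 CPM with antibiotics. Antibiotic replicate 5 was the highest of its group, and the groups did not overlap. The difference for Dhcr7 in edgeR was -0.36 on the log2 scale (SE 0.11, adjusted p = 0.359). Srebf2, the transcription factor that drives the pathway, was at 237 to 254 and 205 to 240 CPM (-0.15, adjusted p = 0.416), and Hmgcs1 at 260 to 288 and 202 to 271 CPM (-0.29, adjusted p = 0.562). Without antibiotic replicate 2, 4 members rather than 9 were lower at an unadjusted p under 0.05, with a median of -0.15. Of all genes, 1626 were at that threshold in either direction without this library, against 1463 with it.

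**Figure D3:**
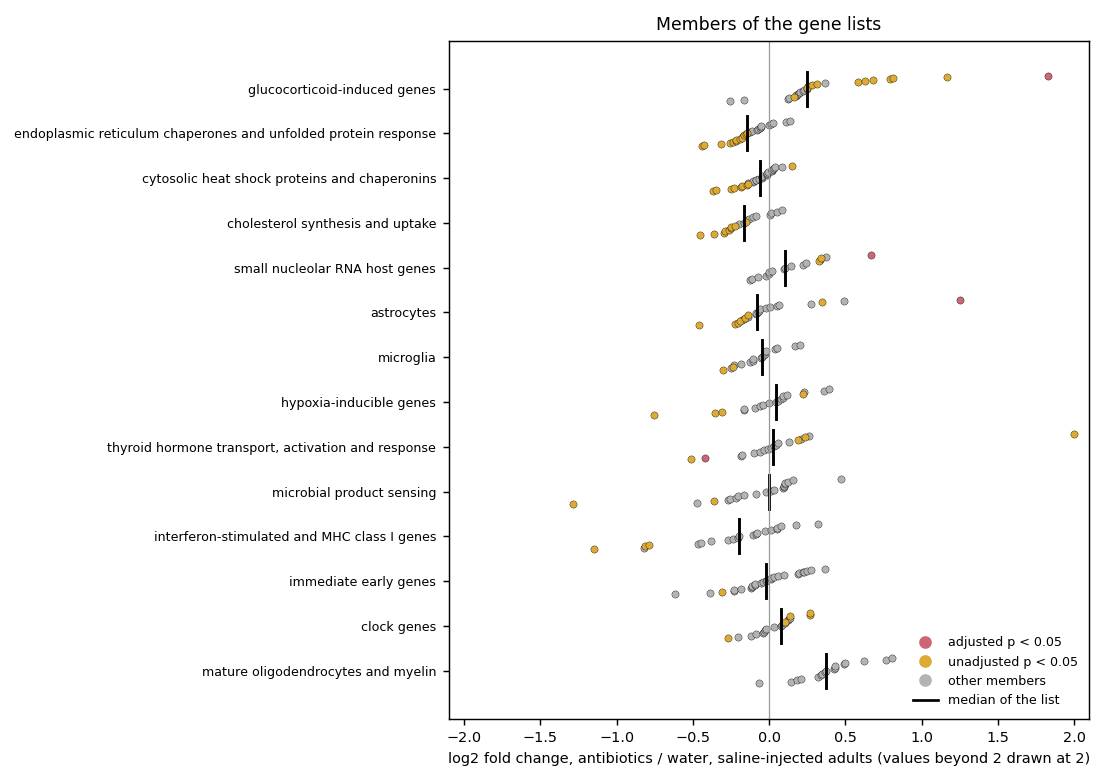
The log2 fold change of antibiotics against water in saline-injected adults is plotted for every tested member of 14 gene lists, with a line at the list's median and values beyond 2 drawn at 2. Glucocorticoid-induced genes (median 0.25) lie mostly right of 0, and endoplasmic reticulum (-0.14) and cholesterol genes (-0.17) mostly left of it.

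Of the 19 tested hypoxia-inducible genes, 10 had a positive and 9 a negative log2 fold change, the median was 0.04 and none passed. At an unadjusted p under 0.05, 3 were lower (15.8%, against 3.74% of all genes) and 1 higher (5.26%, against 3.82%). Apln (ENSMUSG00000037010), the peptide apelin of growing endothelium, was at 31.4, 30.4 and 21.5 CPM with water and at 16.6, 13.7, 20.5, 16.4 and 15.2 CPM with antibiotics. Vegfa (ENSMUSG00000023951), the vascular endothelial growth factor, was at 73.4, 68.6 and 65.6 CPM with water and at 52.2, 58.6, 59.1, 53.2 and 47.9 CPM with antibiotics. The antibiotic libraries were below the water libraries for both, with log2 fold changes of -0.75 (SE 0.17, adjusted p = 0.118) and -0.35 (SE 0.08, adjusted p = 0.15). P4ha1, a collagen prolyl hydroxylase, had -0.31 (adjusted p = 0.243). Pgk1, a glycolytic enzyme, was at -0.09. The higher member was Slc2a1, the glucose transporter of the blood-brain barrier, named after its value was seen (0.22, unadjusted p = 0.0289).

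Other genes with the smallest p, none of which passed, came from several classes. Galnt15, a glycosyltransferase, was at 3.47, 2.94 and 3.23 CPM with water and at 5.77, 5.56, 4.44, 8.86 and 6.77 CPM with antibiotics (log2 fold change 0.96, adjusted p = 0.0953). Sumo3, a small ubiquitin-like modifier, was at 60.5 to 65.4 CPM with water and at 73.0 to 81.7 CPM with antibiotics (0.26, adjusted p = 0.091). Ncan (ENSMUSG00000002341), the chondroitin sulfate proteoglycan neurocan of the extracellular matrix, was at 275, 301 and 294 CPM with water and at 229, 246, 244, 222 and 244 CPM with antibiotics (-0.29, adjusted p = 0.115). Each of these had groups that did not overlap. Mettl16, an RNA methyltransferase, was at -0.40 on the log2 scale (adjusted p = 0.137), Itga6, an integrin subunit, -0.37 (0.19), Tsga10 -0.48 (0.118) and Arhgef19, a guanine nucleotide exchange factor, -0.51 (0.19).

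Markers of glial cells were set beside these results. Of 22 astrocyte genes, 1 rose (Etnppl) and 0 fell, and the median was -0.08. Higher at an unadjusted p under 0.05 were 2 (9.09%, against 3.82% of all genes), and lower were 6 (27.3%, against 3.74%). Their summed level was 7496 to 8657 CPM with water and 7011 to 8253 CPM with antibiotics. Aqp4 (ENSMUSG00000024411), the water channel of astrocyte endfeet, was at 80.8, 90.8 and 70.9 CPM with water and at 53.3, 47.2, 61.4, 58.4 and 73.2 CPM with antibiotics (log2 fold change -0.46, adjusted p = 0.342). Slc1a2, their glutamate transporter, had -0.16 (adjusted p = 0.641), and Gfap, an intermediate filament of reactive astrocytes, was at 59.6 to 69.6 and 38.7 to 98.6 CPM (-0.16, SE 0.35). Etnppl rose while 15 of the 22 astrocyte genes had a negative log2 fold change.

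Of 18 microglial genes, 0 passed, 2 were lower at an unadjusted p under 0.05 (11.1%, against 3.74% of all genes), the median was -0.05, and the summed level was 502 to 540 CPM with water and 466 to 508 CPM with antibiotics. Cx3cr1 (ENSMUSG00000052336), the fractalkine receptor of microglia, was at 46.4, 47.4 and 46.3 CPM with water and at 40.6, 37.9, 42.5, 39.0 and 38.1 CPM with antibiotics. Its groups did not overlap (log2 fold change -0.24, SE 0.08, adjusted p = 0.37). Fcrls, another microglial gene, had -0.30 (adjusted p = 0.564), and Csf1r, the receptor that microglia need to survive, -0.03. The 17 myelin genes had a median of 0.38 with none at an unadjusted p under 0.05, and their summed level was 2037 to 2939 CPM with water and 1899 to 6578 CPM with antibiotics, the highest in replicate 5. The part of glial composition in the results above was not tested.

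Genes that sense microbial products were split in direction, with 10 of 20 tested above 0 and 10 below. In edgeR 0 passed, 0 were higher and 2 lower at an unadjusted p under 0.05 (10%, against 3.74% of all genes), and the median was 0.00. Ly96, which presents lipopolysaccharide to its receptor, was at 0.528, 0.334 and 0.898 CPM with water and at 0.195, 0.242, 0.277, 0.392 and 0.12 CPM with antibiotics (log2 fold change -1.29, SE 0.45, adjusted p = 0.439). Myd88, the adaptor of Toll-like receptors, was at 3.95 to 5.62 and 3.30 to 4.30 CPM (-0.36, adjusted p = 0.574). Tlr4, the lipopolysaccharide receptor, was at 1.34 to 1.496 and 0.901 to 1.62 CPM (-0.26, SE 0.30). Irak3 (ENSMUSG00000020227), an inhibitor of Toll-like receptor signalling that is not a member of this list and was named for its large value, was at 0.302, 0.602 and 0.359 CPM with water and at 1.43, 1.09, 1.53, 0.627 and 1.02 CPM with antibiotics (1.42, SE 0.37, adjusted p = 0.215). Its groups did not overlap at these low levels.

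Of 21 interferon-stimulated and MHC class I genes, 0 passed, 3 were lower at an unadjusted p under 0.05 (14.3%, against 3.74% of all genes), and the median was -0.20. Isg15, a ubiquitin-like protein induced by interferon, was at 1.68 to 2.04 CPM with water and at 0.843 to 1.57 CPM with antibiotics (log2 fold change -0.81, adjusted p = 0.515), and B2m, the light chain of MHC class I, had -0.02. Of 22 cytokine, chemokine and complement genes, 14 could be tested. At an unadjusted p under 0.05, 0 were higher (against 3.82% of all genes) and 0 lower (against 3.74%). Cx3cl1, the neuronal ligand of Cx3cr1, had -0.21 (unadjusted p = 0.161). Of the 18 genes in the list of receptors for microbial metabolites, which also holds a carrier, 8 passed the filter on low counts. Of those, 1 was lower at an unadjusted p under 0.05 (12.5%, against 3.74% of all genes). It was Slc16a7, a carrier of lactate and short-chain monocarboxylates, at 55.7 to 59.3 CPM with water and at 40.4 to 55.6 CPM with antibiotics (-0.29, adjusted p = 0.369).

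No immediate early gene, neurotrophin gene or opioid receptor passed. Fos, an immediate early gene of neuronal activity, was at 14.6, 16.7 and 30.0 CPM with water and at 11.9, 11.5, 13.7, 18.1 and 39.7 CPM with antibiotics (log2 fold change -0.11, interval -0.91 to 0.69), and antibiotic replicate 5 was above all others. Of 27 immediate early genes, 1 was lower (3.7%, against 3.74% of all genes) and 0 higher at an unadjusted p under 0.05, and this was Homer1, a scaffold of the postsynapse (-0.31, adjusted p = 0.342). Bdnf, the brain-derived neurotrophic factor, was at 32.3 to 39.1 and 24.5 to 36.4 CPM (-0.20, interval -0.52 to 0.11). Oprm1, the mu opioid receptor that morphine binds, was at 3.34 to 4.91 CPM with water and at 2.98 to 4.26 CPM with antibiotics (-0.20, interval -0.57 to 0.17). Oprd1, the delta opioid receptor, was at 32.0, 33.7 and 35.1 CPM with water and at 30.6, 29.2, 26.7, 27.7 and 28.3 CPM with antibiotics, without overlap (-0.24, SE 0.08, adjusted p = 0.439). The list of opioid receptors and peptides has 10 members and also holds Rgs4, which is neither. Among them Oprd1 was the member at an unadjusted p under 0.05 (10% lower, against 3.74% of all genes).

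The same treatment was compared in morphine-injected adults, whose 10 libraries share none with the 8 above. There 277 genes passed (1.43%), 118 higher (0.61%) and 159 lower (0.822%), and all 7 genes called with saline passed in the same direction. At an unadjusted p under 0.05, 1145 genes were higher (5.92%) and 1260 lower (6.51%), 12.4% in all. Zfas1 rose by a log2 fold change of 0.50 (adjusted p = 0.00024), Cirbp by 0.74 (8.53e-08), Rbm3 by 0.56 (3.52e-05) and Rbm3os by 0.65 (0.000126). Etnppl rose by 1.66 (3.29e-06) and Plin4 by 2.06 (8.64e-05), while Slco1c1 fell by 0.40 (0.00495). Of the 408 genes at an unadjusted p under 0.01 with saline, 363 (89%) had the same sign with morphine, against 63% of all genes. Of the 277 genes called with morphine, 262 (94.6%) had the same sign with saline.

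**Figure D4:**
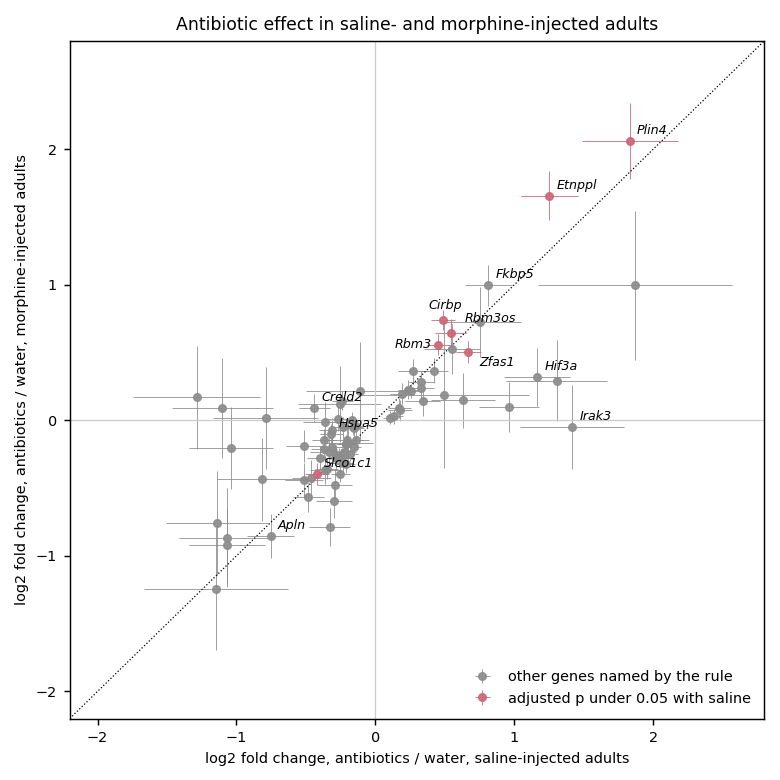
Log2 fold change of antibiotics against water for the genes named by the rule (Ttr left out), in saline-injected adults on the x axis and morphine-injected adults on the y axis, with bars of 1 SE and a dotted line of equal values. Plin4 (1.83 and 2.06) and Etnppl (1.25 and 1.66) lie near the line, and Hif3a (1.16 and 0.32) and Irak3 (1.42 and -0.05) below it.

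Several genes that did not pass with saline passed with morphine. Fkbp5 rose there by 1.00 (adjusted p = 0.00024), and Apln fell by 0.85 (0.00402). Vegfa fell by 0.36 (0.0121), Ncan by 0.25 (0.0227), Tsga10 by 0.57 (0.00205), Hsph1 by 0.39 (0.000222) and Cx3cr1 by 0.32 (0.0147). Calr fell by 0.26 (0.033), and the cholesterol genes had a median of -0.23 and the endoplasmic reticulum genes of -0.10. Hif3a (0.32, adjusted p = 0.588), Galnt15 (0.10, 0.901), Irak3 (-0.05, 0.996), Hspa5 (-0.10, 0.651) and Creld2 (0.09, 0.812) did not pass with morphine.

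The difference of the antibiotic effect between saline- and morphine-injected adults was tested in the same fit. No gene passed in edgeR, 675 had an unadjusted p under 0.05, DESeq2 called 0 and limma-voom 1. The smallest adjusted p was that of Ppp1r10, a regulatory subunit of protein phosphatase 1 (0.336), which was at 44.5 to 48.0 CPM with water and 46.0 to 48.9 CPM with antibiotics under saline and fell by 0.32 under morphine. Creld2 differed by -0.53 (unadjusted p = 0.0015), Galnt15 by 0.86 (0.00401), Irak3 by 1.47 (0.00452) and Hif3a by 0.85 (0.0121), each with an adjusted p of 1.

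In saline-injected adolescents, whose 9 libraries are also separate, 1 gene passed (0.00517%). It was Amn, part of the vitamin B12 receptor of gut and kidney, at 1.04 on the log2 scale (adjusted p = 0.0402, edgeR). In the adults Amn was at 5.05 to 6.22 CPM with water and at 5.88 to 11.4 CPM with antibiotics (0.55, adjusted p = 0.472). The 7 genes called in adults all had the same sign in adolescents and 0 passed there. Zfas1 had 0.24 (adjusted p = 0.339), Cirbp 0.26 (0.272), Etnppl 0.64 (0.271), Rbm3 0.33 (0.154), Plin4 1.16 (0.311), Slco1c1 -0.23 (0.362) and Rbm3os 0.43 (0.154). Of the 408 genes at an unadjusted p under 0.01 in adults, 315 (77.2%) had the same sign in adolescents, against 56.2% of all genes.

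No gene passed the test of the difference between adults and adolescents in edgeR, where 979 had an unadjusted p under 0.05 and the smallest adjusted p was 0.927; DESeq2 and limma-voom called 0. Zfas1 differed by 0.43 (unadjusted p = 0.00123), Vegfa by -0.42 (0.000939), Dnajb5 by -0.53 (6.61e-05) and Pnpla2 by 0.49 (0.00152). Adolescent libraries over 1000000 counts held 14.1 to 16.8 CPM of Zfas1 on water and 17.96 to 19.1 CPM on antibiotics, without overlap.

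The calls were repeated under 17 other settings, and Zfas1 passed in 15 of them, including all 8 that left out 1 of the compared libraries. Etnppl passed in 13, Cirbp in 12, Rbm3 in 8, Plin4 in 7, Slco1c1 in 6 and Rbm3os in 6. Their adjusted p ranged from 5.16e-06 to 0.815 for Zfas1, from 0.00036 to 0.272 for Etnppl, from 0.000165 to 0.463 for Cirbp, from 0.00102 to 1 for Rbm3, from 0.00304 to 0.722 for Plin4, from 0.0074 to 1 for Slco1c1 and from 0.00304 to 1 for Rbm3os. Without water replicate 3 the adjusted p was 0.0722 for Cirbp and Etnppl, 0.778 for Rbm3, 0.722 for Plin4, 0.828 for Slco1c1 and 0.891 for Rbm3os, while their log2 fold changes were 0.50, 1.32, 0.39, 1.74, -0.38 and 0.45. Zfas1 was the gene that passed without water replicate 3 (adjusted p = 0.00786) and without water replicate 1 (0.00125).

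**Figure D5:**
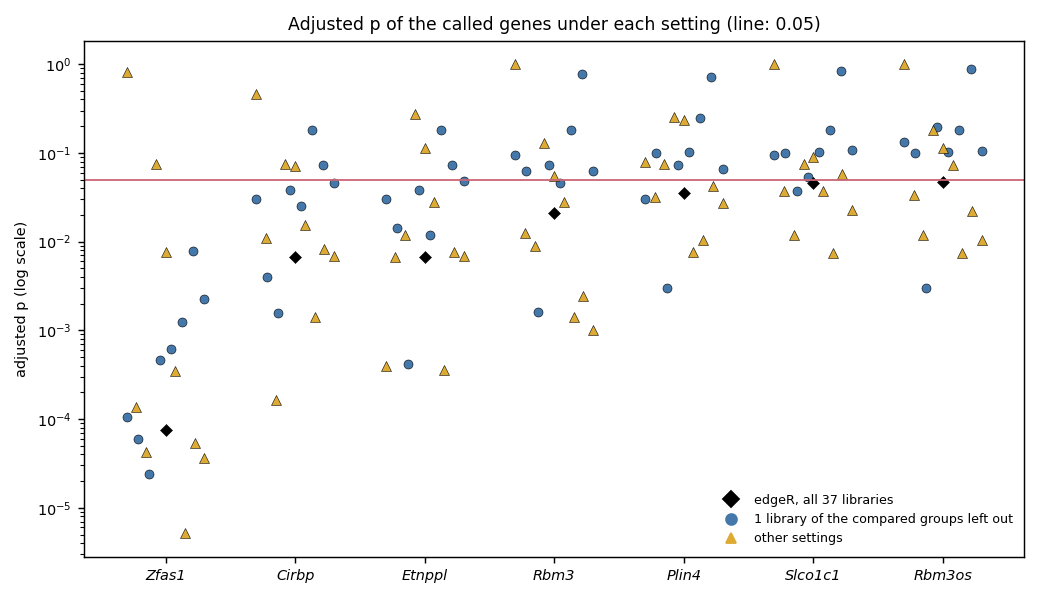
Adjusted p on a log axis for the 7 called genes under edgeR with all 37 libraries (diamonds), with 1 of the 8 compared libraries left out (circles) and under the other settings (triangles), with a line at 0.05. Zfas1 stays under the line in every circle (largest 0.00786), and the other 6 genes do not.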

How the data were processed

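Polyadenylated RNA of brain tissue was measured in 37 libraries of 8 groups (RNeasy Mini kit of Qiagen and a Fast RNA-seq kit of ABclonal, per the labels). The deposited values are the authors' raw read counts per gene, whole numbers with no normalisation. STAR 2.7.10a, DESeq2 and mm10 are named in the submitters' processing notes, and the sources used here give no strand setting and no annotation release. Of 56980 genes, 52073 were matched to GENCODE M21 symbols, while 3.86% of the counts fell on the 4907 unmatched identifiers.

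Counts of all 37 libraries were fitted in R 4.3.3 with edgeR 4.0.16 (TMM, filterByExpr, which left 19348 genes, robust quasi-likelihood fit with 1 mean per group and no replicate block). The p-values were adjusted by Benjamini-Hochberg over all tested genes, and the threshold was 0.05. CPM used TMM-scaled totals. Means and SDs leave out 2 libraries under 1000000 counts, adolescent antibiotics saline replicate 3 (25165) and adult antibiotics morphine replicate 4 (58764), which stayed in the fit. The 95% intervals come from the fitted log2 fold change, its SE and the total degrees of freedom of the fit. Precision is that of the spread between libraries, and no counting intervals are given.

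The genes named are all that passed, per direction the 10 with the smallest p and the 5 with the largest change at an unadjusted p under 0.01, of each list up to 3 members with the smallest p under 0.05 and the highest-expressed member, and 16 fixed genes. Genes named beyond this are marked, were named for a promoter match or serve as marker checks (Slc17a7, Drd2, Gfap). A gene that this rule names is not reported here. The members and the 37 gene lists were chosen with earlier results of these data known. Lists are described by counts and medians, with no test. Promoter windows came from RefSeq (GRCm38.p6).

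Settings tried were DESeq2 1.42.0, its size factors in edgeR, no filter, only the compared groups, only adults, a replicate block, limma-voom (limma 3.58.1), 35 and 34 libraries, and leaving out each library. The code was tested on simulated data. Morphine against saline was not analysed here.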

Additional observations from a re-analysis of the deposited data

Results flagged for a closer look

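In the 5 antibiotic libraries of saline-injected adults, 123 values were examined for a single library far from the others, and 11 had a gap to the nearest library of more than 0.71 of the group's range. Chance gives about 1 in 20 such groups. The group of 3 water libraries was too small to examine in this way.

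Antibiotic replicate 5 was the highest for the summed level of myelin genes (6578 CPM, next 3250), of oligodendrocyte precursor and new oligodendrocyte genes (619.1 CPM, next 465.7), of immature neuron genes (1782 CPM, next 1560) and of genes for sensing microbial products (120.1 CPM, next 115.6). It was also the highest for Ddc, the enzyme that makes serotonin and dopamine from their precursors (10.01 CPM, next 6.10), and for Fos (39.74 CPM, next 18.1). Antibiotic replicate 4 was the highest for Ttr (34.32 CPM, next 0.121), for the summed choroid plexus and ependyma genes (59.87 CPM, next 19.7) and for Sumo3 (81.66 CPM, next 74.3). Itga6 was highest in replicate 3 (16.71 CPM, next 13.9), and Arhgef19 was lowest in replicate 1 (7.85 CPM, next 10.3).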

How the results depend on the processing

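For antibiotics against water in saline-injected adults (7 genes), DESeq2 called 1 gene (Etnppl), a fit of only the compared groups 0 (1795 at an unadjusted p under 0.05), only adult libraries 1 (Zfas1), limma-voom 116 (44 higher, 72 lower) and 34 libraries 44 (23 higher, 21 lower), and these last contained all 7. Leaving out 1 library gave 1 to 14 genes: 1 without water replicate 1 or 3, 3 without water replicate 5, 5, 3, 14, 3 and 4 without antibiotic replicates 1 to 5. In morphine-injected adults (277) DESeq2 called 50, limma-voom 696 and 34 libraries 678, with 60 to 391 on leaving out 1 library (60 without antibiotic replicate 2, 126 without replicate 1). In saline-injected adolescents (1, Amn) DESeq2 called 19, and Amn was not among them. No filter gave 3, limma-voom 17 and 35 libraries 2, each with Amn. Only the compared groups and 34 libraries gave 0, and leaving out 1 library gave 0 to 15. The difference between injections (0) had 1 call with limma-voom, 35 and 34 libraries, and the difference between ages (0) had 1 with the replicate block.

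With the replicate block 7 genes were called in saline-injected adults (5 higher, 2 lower, 6 shared), without Rbm3os (adjusted p = 0.0729) and with Dnajb5. Deviations of same-numbered libraries correlated at 0.031, 0.0294 and 0.133, and those of differently numbered libraries at -0.197 to 0.125. The numbers were not taken as pairs. Fos (-0.11) ranged from -0.58 to 0.28 on leaving out 1 library, with its sign changed without antibiotic replicate 1 (0.02) or 2 (0.03) and water replicate 5 (0.28). The median of the hypoxia-inducible genes was 0.01 without water replicate 3. Of the changes in fold change of single genes, 1272 kept direction and side of the threshold, 54 passed only under the alternative and 52 no longer passed. Values near or under 1 CPM (Irak3, Ly96, Oas1a) rest on few reads per library at 12905623 to 17013300 counts.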

Other observations

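Clock genes were measured in the same libraries. Of 19 tested, none passed in edgeR, 4 were higher (21.1%, against 3.82% of all genes) and 1 lower (5.26%, against 3.74%) at an unadjusted p under 0.05, and the median log2 fold change was 0.08. Arntl, the activator of the clock, was at 30.5, 32.6 and 26.9 CPM with water and at 24.1, 25.2, 28.4, 25.2 and 21.5 CPM with antibiotics (-0.27, SE 0.09, adjusted p = 0.439). Cry1, a repressor of Arntl, was at 13.3, 17.9 and 18.4 CPM with water and at 21.8, 18.8, 19.1, 18.9 and 21.0 CPM with antibiotics (0.27, SE 0.11, adjusted p = 0.498), and it rose by 0.36 in morphine-injected adults (adjusted p = 0.0361). Npas2 had 0.14 and Tef 0.11. The sources used here do not give the time of day of sampling.

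Of 12 tested genes of the list of immature neurons, 6 had a positive and 6 a negative log2 fold change, the median was -0.01 and none passed. At an unadjusted p under 0.05, 2 were lower (16.7%, against 3.74% of all genes) and 0 higher. Tubb3, a neuronal beta-tubulin, was at 312, 333 and 341 CPM with water and at 293, 274, 282, 268 and 300 CPM with antibiotics (log2 fold change -0.21, SE 0.07, adjusted p = 0.362), without overlap, and fell by 0.32 in morphine-injected adults (adjusted p = 0.00404). Tubb2b, another beta-tubulin, was at 54.4 to 61.5 and 40.1 to 55.3 CPM (-0.33, adjusted p = 0.596) and fell by 0.79 with morphine (adjusted p = 0.00174). Stmn1, a microtubule-binding protein of the same list, had 0.06.

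Among genes near 1 CPM with large values, Ccdc188 was at 2.41, 2.01 and 2.03 CPM with water and at 0.973, 0.846, 1.32, 1.10 and 0.899 CPM with antibiotics (log2 fold change -1.07, adjusted p = 0.209). Ncaph, a condensin subunit, was at 0.754 to 1.32 and 0.324 to 0.624 CPM (-1.10, adjusted p = 0.382). Neither group of libraries overlapped with the other for these genes. Acr, the sperm protease acrosin, was at 0.905, 0.268 and 0.778 CPM with water and at 2.01, 1.93, 1.46, 2.04 and 0.659 CPM with antibiotics, with overlap (1.30, adjusted p = 0.254).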
